A study of Homo sapiens with 12 samples.

Results

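Splicing was followed in 283 groups of overlapping introns, here called clusters, in which every listed junction is already present in gene annotation. They were taken from the 2994 clusters that the authors list as changed after loss of TDP-43, and they hold 823 introns of 273 named genes. A cluster was kept when each of its introns carried the junction class "annotated". The cluster list has a summary column of its own that marks 336 clusters as annotated, and in the 53 that were not kept every junction is of unknown strand. The remaining 2711 clusters hold at least 1 junction that is unannotated or could not be placed on a strand. RefSeq (GRCh38.p14) places 275 of the 283 clusters inside the gene of the same symbol, and 278 belong to protein-coding genes.

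The neurons came from the established human embryonic stem cell line WA01, in which the transcription factor NGN2 was driven to turn the cells into neurons. They carried either a scrambled short hairpin RNA (shRNA) or an shRNA against TDP-43 for 7 days, and RNA-seq and 3' end-seq were each run on 3 replicates per group, 12 samples in all. All samples share the cell line and the induction, and both groups received an shRNA. The labels do not say whether replicates were separate cultures, and they do not say whether the same cultures gave both kinds of library.

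TDP-43, encoded by TARDBP, is a nuclear RNA-binding protein that binds UG-rich RNA and is lost from the nucleus of affected neurons in ALS and frontotemporal dementia. It is best known for blocking unannotated (cryptic) exons, and it also sets the balance between normal isoforms of many genes. Splicing joins a donor, the 5' splice site at the end of an exon, to an acceptor, the 3' splice site at the start of a later one. Junctions that compete for an end form a cluster, and a cassette exon is an exon that can be joined in through 2 inclusion introns or passed over by 1 skipping intron.

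Changes of intron share and adjusted p-values below are those of the authors' deposited table, with 1 value per intron or cluster and no value per library. No standard deviation, interval or depth could therefore be given, and the level of TARDBP and the neuronal markers were not analysed here. In bulk RNA, a change in which cells are present and a change within cells cannot be told apart. A change is in percentage points of the junction reads of the cluster. The changes of a cluster sum to about 0. Which group was subtracted is not stated, and a positive change was taken to mean higher in the knockdown. This was checked on the unannotated junction of STMN2, a microtubule regulator whose cryptic exon is a known mark of TDP-43 loss: the authors' deposited table lists it at +44.9 points, and at +54.2 points in a cluster called on the opposite strand. Among 2159 clusters with a junction of an unannotated splice site, the summed share of such junctions was higher in 1249 and lower in 855.

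Where a changed donor lay close to a RefSeq gene start, its sequence could be read. This held for 13 of the 551 donors of the 283 clusters, in 12 genes, and all 13 introns begin with GT. The 4 genes with the largest changes between competing donors are shown to place the splice sites that gained or lost reads. Each line gives 10 bases of exon and 20 bases of intron, 5′ to 3′ on the gene's strand from RefSeq (GRCh38.p14), and capitals mark the GT that opens the intron at each donor of the cluster.
ETV1 donor, chr7:13986618-13986647, minus strand: cttgcagaagGTaaggcaaaatttgcttta
CHEK1 donor, chr11:125626003-125626032, plus strand: ggacagtccgGTgaggaagggcggccggta
COA6 donor, chr1:234373669-234373698, plus strand: gggcagagagGTcggcttgctgatgggtcc
MEN1 donors, chr11:64810506-64810535, minus strand: agtgtgggatGTaagcgcggagGTgggcga
The ETV1 donor gained 26.5 points, the CHEK1 donor 20 points and the COA6 donor 12.9 points, each at the cost of a donor farther downstream. The MEN1 stretch holds a pair of donors 12 bases apart, of which the first gained 2.9 points and the second 22.8 points in the authors' deposited table. The positions of the other donors, and of the cassette exons, are given as coordinates only.

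Events were classed by the geometry of their introns. Cassette exons made up 146 of the 283 clusters (51.6%), against 509 of the 2711 other listed clusters (18.8%). There were 53 choices between acceptors, 47 choices between donors, 33 clusters of 4 or more introns and 4 of another shape. Clusters of 4 or more introns were 11.7% of the annotated-only clusters and 58.2% of the others, so the annotated-only clusters were the simpler ones, with a median of 3 introns against 4. Requiring every intron to be annotated favours clusters with few introns. The median of the largest change per cluster was 10 points, against 6.1 points in the other clusters. A change of at least 10 points was listed in 143 clusters (50.5%), beside 33.0% of all listed clusters. The share was also higher within each shape: it was 50.7% against 41.5% for cassettes and 64.2% against 31.4% for acceptor choices. No test was made, since clusters are not replicates. Adjusted p-values ran from 3.76e-13 to 0.0499 in the authors' deposited table, with a median of 0.0136 against 0.0104 in the other clusters.

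**Figure D1:**
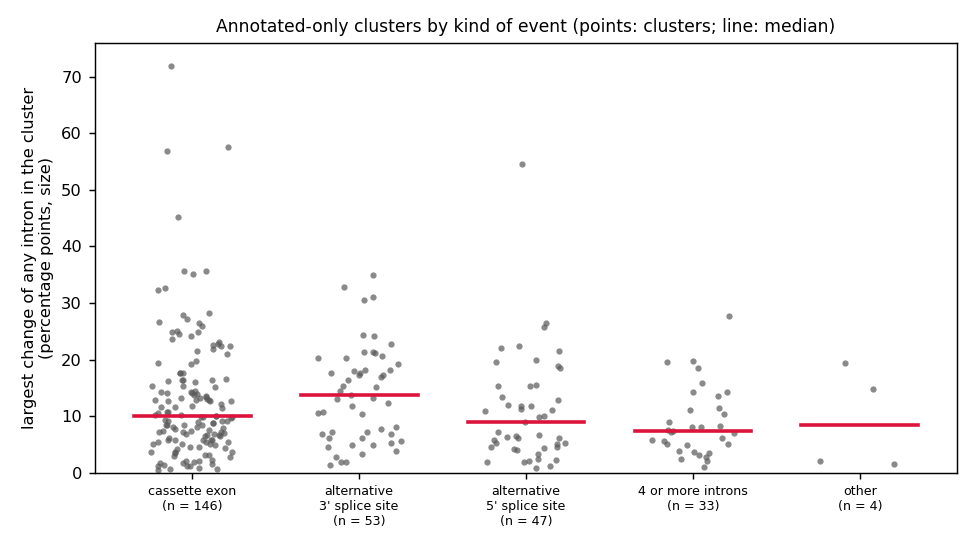
Largest change of any intron in each of the 283 clusters (vertical axis, size in percentage points) by kind of event (horizontal axis); each point is 1 cluster, spread sideways for clarity, and the red line is the median. Medians are 10 points for cassettes, 13.8 for acceptor choices, 8.9 for donor choices and 7.3 for clusters of 4 or more introns.

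Cassette exons moved both ways. Inclusion was higher in the knockdown for 72 exons and lower for 74, so 49.3% were higher beside 48.9% of all 655 listed cassettes. The larger changes leaned to skipping: of the 68 cassettes whose skipping intron moved by at least 10 points, 26 had higher and 42 had lower inclusion (38.2% higher), beside 50.6% higher among all 241 such listed cassettes. In the other clusters the split was 96 higher and 77 lower. Where inclusion was lower, the skipping intron rose by a median of 11.65 points, and where it was higher the median change was -7.3 points. In 113 clusters both inclusion introns moved against the skipping intron, 46 with higher and 67 with lower inclusion. In the other 33, at least 1 inclusion intron did not, so the direction of the exon is less clear there.

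The group with the largest gains includes genes of calcium and cyclic AMP signalling. CACNA1E encodes the pore of an R-type voltage-gated calcium channel, and its 57-nt exon (hg38 chr1:181731175-181731231) had the largest change of all 283 clusters. In the authors' deposited table its upstream and downstream inclusion introns changed by 38.9 and 33.1 points and its skipping intron by -71.9 points (adjusted p = 3.12e-07). CACNA2D2 encodes an auxiliary subunit of such channels, and skipping of its 21-nt exon (chr3:50373065-50373085) changed by -35.7 points, with inclusion introns at 11.7 and 24.0 points (adjusted p = 0.000291). RAPGEF4, an exchange factor for Rap proteins that is switched on by cyclic AMP, gained a 54-nt exon (chr2:172960760-172960813), with a skipping change of -56.8 points (adjusted p = 1.08e-05). The lengths of all 3 exons are multiples of 3.

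The other large gains were spread over kinases, trafficking factors and scaffold proteins. WNK1, a kinase that controls chloride cotransporters, gained a 459-nt exon (chr12:879573-880031), and its skipping intron changed by -35.7 points (adjusted p = 9.18e-06). ELMOD1, which switches off Arf GTPases, gained a 24-nt exon with a skipping change of -32.6 points. PPFIBP1, a liprin scaffold protein, gained a 33-nt exon with a skipping change of -32.3 points. In the authors' deposited table LRRC27 and FAM13B changed by -45.2 and -26.0 points, for exons of 95 and 66 nt. Of these 8 exons, the LRRC27 exon is the one whose length is not a multiple of 3.

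The largest loss was in POLDIP3, which links newly spliced mRNA to translation and in which skipping of an exon is a reported effect of TDP-43 loss. Skipping of its 87-nt exon (chr22:42601970-42602056) rose by 57.5 points, and its upstream and downstream inclusion introns changed by -39.8 and -17.7 points (adjusted p = 5.34e-06 in the authors' deposited table). PLOD2, a collagen lysyl hydroxylase, lost a 63-nt exon, and its skipping intron rose by 35.1 points. NMT2, an N-myristoyltransferase, lost a 43-nt exon (27.8 points). LRP8, a receptor for reelin, lost a 387-nt exon (chr1:53276692-53277078), with a skipping change of 27.1 points, and in another cluster a 177-nt exon, with 12.7 points. The lysosomal enzyme GUSB changed by 26.4 points for an 85-nt exon and the phosphodiesterase SMPDL3A by 25.1 points for a 214-nt exon. DBNDD2 also lost inclusion (28.2 points), but its inner splice sites lie 39858 nt apart. It was counted as a cassette by the geometry of its introns, and that stretch may hold more than 1 exon.

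ILK, the integrin-linked kinase, was the gene with the most annotated-only clusters, 3, and all 3 lost a cassette exon. Its exons of 166, 97 and 86 nt lie between chr11:6608046 and chr11:6609156, with exons of 96 and 84 nt between them. Skipping of them rose by 26.7, 13.6 and 24.8 points (adjusted p = 8.13e-05, 0.00215 and 3.58e-05 in the authors' deposited table). None of the 3 lengths is a multiple of 3. The clusters are neighbours in 1 gene and are not independent of one another.

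**Figure D2:**
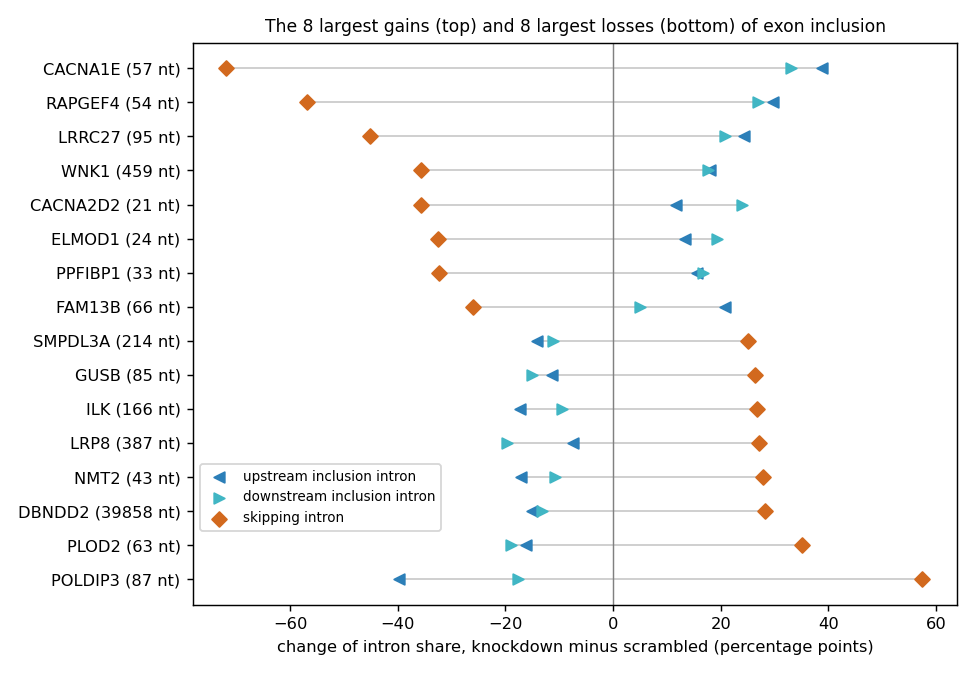
Change of each intron's share (horizontal axis, percentage points, knockdown minus scrambled as read here) for the 8 cassettes with the largest gain of inclusion (top) and the 8 with the largest loss (bottom); triangles are the inclusion introns, diamonds the skipping intron, and each gene's exon length is beside its name. In all 16 both inclusion introns lie on the other side of 0 from the skipping intron, from CACNA1E at -71.9 to POLDIP3 at 57.5.

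Exon lengths that keep the reading frame were common. The length was a multiple of 3 in 104 of 146 cassettes (71.2%), against 221 of 509 (43.4%) in the other clusters. The share was 51 of 68 for cassettes with a skipping change of at least 10 points. It was 54 of 72 where inclusion was higher and 50 of 74 where it was lower. The median length was 84.5 nt, against 113 nt in the other clusters, and the range was 9 to 39858 nt. In 8 clusters, DBNDD2 among them, the inner splice sites lay over 500 nt apart, which may span more than 1 exon. Without these 8, 73.2% of the lengths were multiples of 3. The exons were not placed in coding sequence or untranslated regions, so a multiple of 3 is a statement on length alone.

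**Figure D3:**
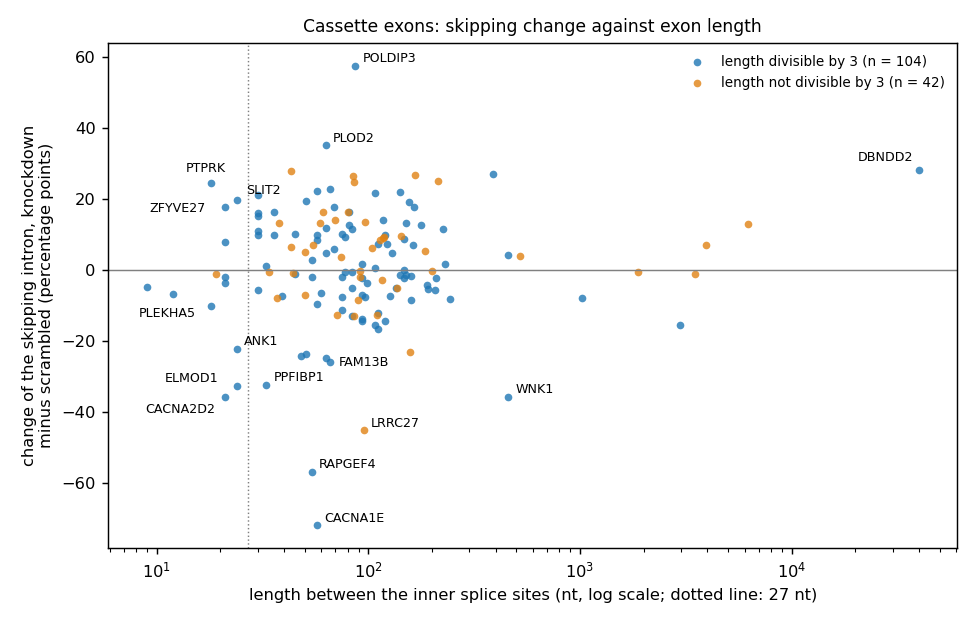
Change of the skipping intron (vertical axis, percentage points, knockdown minus scrambled as read here) against the length between the inner splice sites (horizontal axis, nt, log scale) for the 146 cassettes; blue points have a length that is a multiple of 3 (104) and orange points do not (42). The dotted line marks 27 nt, and DBNDD2 lies apart at 39858 nt.

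Microexons, here exons of up to 27 nt, are a class of very short exons used mainly in neurons. There were 13 among the 146 cassettes (8.90%), against 19 of 509 in the other clusters (3.73%), and 12 of the 13 were multiples of 3, beside 87.5% of all 32 listed microexons. Inclusion was higher in 9 and lower in 4, beside 53.1% higher among all 32, and it was higher in 8 and lower in 11 of the 19. Besides CACNA2D2 and ELMOD1, the 24-nt exon of ANK1, an ankyrin that ties membrane proteins to spectrin, gained inclusion, with a skipping change of -22.3 points (adjusted p = 0.000115 in the authors' deposited table). The 4 that lost inclusion were an 18-nt exon of the receptor phosphatase PTPRK (24.5 points of skipping), a 24-nt exon of the axon guidance ligand SLIT2 (19.8), a 21-nt exon of ZFYVE27 (17.7), which promotes neurite growth, and a 21-nt exon of GTF3C5 (7.8). PLEKHA5 (18 nt) changed by -10.2 points. The others with higher inclusion changed by less than 10 points: DNM2 (12 nt) by -6.9, PTK2 (9 nt) by -4.9, FERMT2 (21 nt) by -3.8, MEF2D (21 nt) by -2.0 and HN1 (19 nt) by -1.2. In FERMT2 and MEF2D the upstream and downstream inclusion introns moved in opposite directions, by 5.5 and -1.7 points and by -1.1 and 3.1 points. The direction of these exons is therefore less clear, although both were counted as higher.

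Cassettes of just over that length were also found in neuronal membrane and signalling genes. Of the 24 cassettes of 28 to 51 nt, inclusion was higher in 10 and lower in 14. Among the 34 of that length in the other clusters it was higher in 18 and lower in 16. The 33-nt exon of PPFIBP1, described above, is among the gains (skipping change of -32.3 points). The 30-nt exons of NCAM1, a neural cell adhesion molecule, and of PPP3CA, the catalytic subunit of calcineurin, lost inclusion, with skipping up by 15.2 and 21 points. The 36-nt exon of ANK2, another ankyrin, lost inclusion as well (16.2 points, adjusted p = 8.07e-06 in the authors' deposited table). KCND3, a potassium channel, had a skipping change of 22.2 points for a longer exon of 57 nt, outside that range. Its upstream intron fell by 22.4 points, but the downstream intron changed by 0.2.

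Choices between acceptors were of 2 kinds by distance. In 19 clusters with 2 introns and acceptors 13 to 100 nt apart, the farther acceptor was lower in 15 and higher in 4. That is close to the 73.9% lower among all 92 such listed clusters. In 22 clusters with acceptors over 500 nt apart, which may open separate exons, the farther one was higher in 17 and lower in 5, beside 54.5% higher among all 99 such listed clusters. In 5 clusters the acceptors were up to 12 nt apart. In GIGYF2 the acceptor 3 nt farther on gained 2.7 points at the cost of the nearer one (adjusted p = 0.00823 in the authors' deposited table). CELF1, a splicing regulator, lost 10.3 points at an acceptor 12 nt farther on.

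Distant acceptors gave the largest changes of this class. ALG13, which works in protein N-glycosylation, moved 35 points from an acceptor at chrX:111687887 to one 20140 nt downstream (adjusted p = 0.0041). In PRKCB, which is known to end in either of a pair of last exons that give different protein kinase C beta C-termini, the nearer acceptor gained 31.1 points (adjusted p = 0.00182 in the authors' deposited table). PPIP5K1 moved 30.6 points between less distant acceptors, 271 nt apart. However, a near-identical copy of this gene lies nearby, so the assignment of its reads is uncertain.

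Transcript ends measured by 3' end-seq, which reads the poly(A) end of each RNA, could be set beside such choices. In 9 clusters a polyadenylation site changed in 3' end-seq lay behind 1 acceptor and inside another intron of the same donor and gene, the arrangement of an upstream last exon. In 8 of them no listed donor lay between the acceptor and the site. In TMED4 one did, so there the junction also leads into an internal exon. The site lay 183 to 2699 nt past the acceptor. In all 9 the junction and the site moved the same way. Over all 136 such junctions in 78 listed clusters, these 9 included, 79.4% did. The sites were matched after the data were seen.

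In 5 genes the junction and the site behind it were both lower, and the authors' label for the gene was longer. EIF4E2, a cap-binding protein that represses translation, lost 27.7 points at a junction that ends 264 nt before its falling site. Its polyadenylation usage index changed by 0.198, with an adjusted p given as 0 in the authors' deposited table. ALG13 changed by -35 points and 0.233 in the index. SUSD4, a complement regulator, changed by -20.2 points and 0.118, and the histone methyltransferase NSD3 (listed under its older name WHSC1L1) by -14.4 points and 0.346.

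In 4 genes both were higher, and the label was shorter. The junction into the upstream last exon of DTNA, a dystrobrevin of the dystrophin complex, gained 24.4 points, and the index changed by -0.345. Its rising site, 2699 nt past the acceptor, was listed as cryptic, with a usage of 4.49% in the controls and 37.2% in the knockdown in the authors' deposited table. OLFM1, a secreted neuronal glycoprotein, gained 21.2 points and changed by -0.25. TMED4, a cargo receptor of the secretory pathway, gained 10 points at the junction into its cassette exon, with a site 1342 nt past the acceptor, and changed by -0.324. Its intron out of that exon, within which the site lies, changed by -9.8 points, and its skipping intron by -0.1 points.

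**Figure D4:**
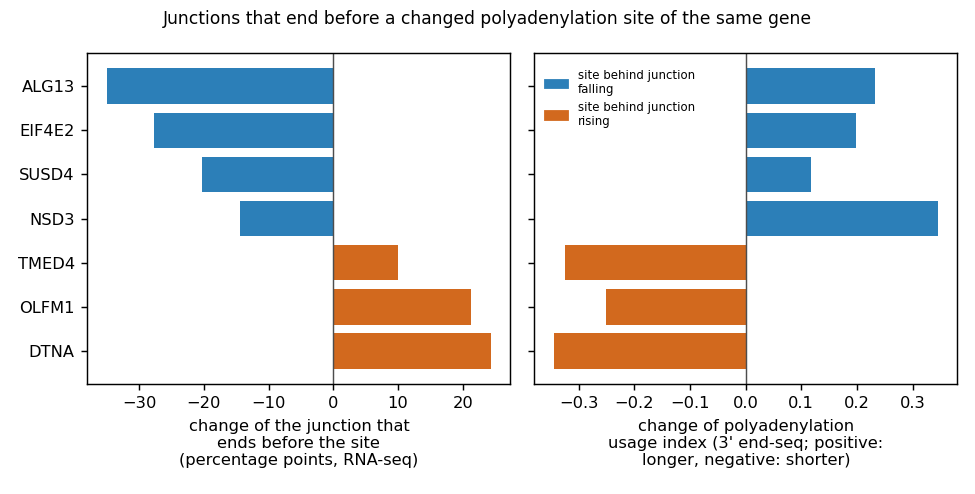
Change of the junction that ends before a changed polyadenylation site (left, percentage points, RNA-seq) and of the polyadenylation usage index of the same gene (right, authors' score, 3' end-seq) for 7 of the 9 genes; blue bars have a falling and orange bars a rising site behind the junction. The 4 genes shown with lower junctions have indices of 0.118 to 0.346, and the 3 with higher junctions have -0.345 to -0.25.

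Over genes, 46 of the 273 (16.8%) were in the 3' end-seq list of changed polyadenylation, beside 17.4% of the 2410 genes of all listed clusters. These 46 are 2.20% of the 2092 genes of that list. They comprised 37 longer and 9 shorter genes, beside 85.6% longer over the whole list. The RNA-seq list of polyadenylation changes held 21 (7.69%, beside 8.34%), all distal, beside 95.0% distal among all 841 genes of that list, and 7 genes were in both. Cryptic sites were listed for 8 genes (2.93%, beside 3.65%). The shares differ little from those of all listed clusters. BSCL2, with a junction lower by 13.1 points, has changed sites of its neighbour HNRNPUL2 behind it, so it was not counted among the last exons.

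The largest choice between donors was in ELMO1. This gene, which activates Rac with DOCK proteins, shifted 54.5 points from a donor at chr7:37013299 to one 27376 nt downstream (adjusted p = 0.00239 in the authors' deposited table). Such a distance is the geometry of alternative first exons. RALYL, an RNA-binding protein, moved 21.5 points to a donor 176483 nt downstream, and CELF5, a splicing regulator, 19.6 points to one 620 nt downstream. The ETS transcription factor ETV1, whose gaining donor is printed above, moved in the opposite sense, by 26.5 points to the upstream of a pair 522 nt apart (adjusted p = 0.0118). MEN1, which encodes menin, lost 25.7 points at its farthest donor. CHEK1, a checkpoint kinase, fell by 19.5 points at its farthest donor, and COA6, an assembly factor of cytochrome c oxidase, lost 12.9. CUL7, a cullin of a ubiquitin ligase, moved 22.4 points to a donor 96 nt farther on. Over the 20 clusters of 2 introns with donors over 500 nt apart, the farther donor was higher in 10 and lower in 10.

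Paired exons of equal length moved in opposite directions in 2 genes with a pair of clusters each. MAPK9 encodes the kinase JNK2, and its 72-nt exons at chr5:180247439-180247510 and chr5:180247855-180247926 are such a pair. The junction out of the first coordinate range gained 22.0 points and that out of the second lost 22.0 points (adjusted p = 0.00841). On the other side of the exons, introns into the first range changed by 5.4 and 12.2 points and the intron into the second by -19.7 points in the authors' deposited table. RAB6A, a Golgi GTPase, has a pair of 106-nt exons, and the junctions of one changed by -4.5 and -0.9 points and those of the other by 4.5 and 1.5 points.

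MARK2, a kinase that detaches tau and other proteins from microtubules, had the smallest adjusted p, 3.76e-13. In its cluster of 6 introns, introns into and out of a 27-nt exon (chr11:63906088-63906114) changed by 10.8 and 9.9 points in sum, and those into and out of a 45-nt exon (chr11:63908260-63908304) by -6.3 and -14.3 points. A second MARK2 cluster listed a 162-nt exon with a skipping change of 7.1 points. In NAT9, where 4 introns share 1 donor, the first acceptor lost 22.7 points. In the condensin subunit NCAPG2 the intron that skips the inner exons gained 19.6 points, and in CLK2, a kinase of SR splicing factors, the skipping intron gained 18.5 points (adjusted p = 0.0229 in the authors' deposited table).

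Gene lists were set beside the clusters. The lists hold only some of the genes of a function. For example, the kinases ILK and CHEK1 and the histone methyltransferase NSD3 are on none of them. Of 46 reported TDP-43 splicing targets, 34 had a listed cluster of any kind and 9 had an annotated-only one. Among the 9 were POLDIP3, PPFIBP1, CELF5, STAG2, MEF2D, BRD8 and CYFIP2. STAG2, a cohesin subunit, gained a 111-nt exon with a skipping change of -16.6 points, while the skipping introns of BRD8 and CYFIP2 changed by -2.2 and -0.5 points. Their inclusion introns moved in opposite directions, by -4.9 and 7.2 points in BRD8 and by -0.7 and 1.2 points in CYFIP2. These targets were named partly from studies of TDP-43 loss, so the list is not independent evidence.

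Among ALS and FTD genes, 6 of 34 had a listed cluster and 2 an annotated-only one, among them MAPT. The 93-nt exon of MAPT, which encodes tau, had a skipping change of 1.6 points (adjusted p = 0.049). Chromatin and transcription genes had 10 of 60, among them SMARCC2, a BAF complex subunit whose 66-nt exon lost inclusion (22.8 points, adjusted p = 1.59e-05 in the authors' deposited table). Kinase, phosphatase and GTPase regulator genes had 9 of 71, among them ARFGAP1 (30 nt, 16.0 points). Cytoskeleton genes had 9 of 77; ENAH, an actin regulator, lost a 63-nt exon (11.7 points) and the myosin light chain MYL6 a 45-nt exon (10 points). Splicing regulators had 7 of 75, with the largest changes in CELF5 (19.6 points), CLK2 (18.5) and CELF1 (10.3), all described above. HNRNPK changed by 4.9 points in a choice between acceptors. The skipping introns of SRSF3 and PTBP2 changed by 4.1 and -0.6 points, and the inclusion introns of PTBP2 moved in opposite directions (0.7 and -0.1 points).

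Ion channels had 4 of 44, among them CACNA1E, CACNA2D2 and KCND3. Postsynaptic and adhesion genes had 4 of 47. Synaptic vesicle genes had 3 of 59, and of them EPN1, an endocytic adaptor, lost a 75-nt exon (10.2 points, adjusted p = 1.85e-06). Translation and RNA decay genes had 1 of 44, RPS3 at 1.8 points. That list leaves out other such genes with annotated-only clusters, among them EIF4E2 (27.7 points) and RPL17 (1 point). Its low count is therefore no measure of how many translation genes changed. Genes of annotated-only clusters are 11.3% of the genes of all listed clusters. Among list genes with any listed cluster, the share was 2 of 6 (33.3%) for ALS and FTD genes, 10 of 31 (32.3%) for chromatin genes and 9 of 34 (26.5%) for reported targets. It was 7 of 31 (22.6%) for splicing regulators, 4 of 18 (22.2%) for ion channels, 9 of 42 (21.4%) for kinase and GTPase regulator genes and 9 of 48 (18.8%) for cytoskeleton genes. It was 4 of 29 (13.8%) for postsynaptic genes, 3 of 29 (10.3%) for synaptic vesicle genes and 1 of 20 (5%) for translation genes. These counts are small, depend on which genes were put on each list, and were not tested.

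Of the 273 genes, 83 (30.4%) also had a listed cluster with an unannotated or unplaced junction, and 9 had at least 2 annotated-only clusters. At least 2 listed clusters of any kind were found in 86 of them (31.5%), beside 415 of the 2410 genes of all listed clusters (17.2%). A gene with several listed clusters has more chances to hold an annotated-only one. An adjusted p belongs to a whole cluster and not to each of its introns, so a small change within a listed cluster has no test of its own. Fewer molecules of 1 isoform and more of another give the same change of share, and the tables cannot tell them apart.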

How the data were processed

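RNA-seq and 3' end-seq of the 2 groups (3 replicates each) were used through the authors' own comparison tables. The deposited score for each intron is its change of share, to 3 decimals, given here in percentage points. Adjusted p-values are deposited p-values, 1 per cluster or gene, all up to 0.05, so the number tested is not known and depth is unknown. Polyadenylation changes are a deposited score of unstated scale. For cryptic sites the authors' usage fraction of each group is printed as a percent. Per the submitters' processing notes, fastp, STAR, Salmon, SAMtools and DESeq2 were used with hg38, without versions or roles. Leafcutter is named by the deposited splicing tables, and its settings are not given in the labels or headers. Left out was a gene table whose 6 sample columns no label ties to a sample.

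Introns were joined to clusters by cluster name. A cassette has 3 introns, the outer one sharing an end with each of the others. The inclusion change is the mean of the inclusion introns. Exon length runs from the acceptor to the donor, both included. Acceptor or donor choices share 1 end in all introns, and other clusters of 4 or more introns form their own class. Junctions ending at most 1000 nt before a changed site, on its strand, counted as near it. The classing was tested on simulated data (500 clusters per event). Symbols were matched through RefSeq synonyms (8 of the genes updated), and sequences are from RefSeq promoter windows. No test was made over clusters, which are not replicates. Members, lists and rules were chosen with earlier results of these data known. Named were the 8 largest gains and losses of inclusion, the 6 largest microexon changes, the 4 largest changes of each other class, the 6 smallest adjusted p-values, reported TDP-43 targets, ALS and FTD genes, up to 4 genes per other list and clusters near changed sites. COA6, CHEK1, RALYL, GIGYF2, GTF3C5 and the smaller microexons were chosen after their values were seen. Results for a few genes are not reported here, although the counts include them. Python 3.11.15, numpy 2.4.6, pandas 2.3.3 and matplotlib 3.10.9 were used.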

Additional observations from a re-analysis of the deposited data

How the results depend on the processing

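Stricter limits lower counts by construction, since fewer clusters remain. At an adjusted p of up to 0.01 or 0.001, 121 or 47 clusters and 71 or 35 cassettes remained, and 75 clusters past 10 points at 0.01. The size limit of 5 or 20 points gave 222 or 50 clusters. Inclusion was higher in 26 and lower in 42 cassettes at 10 points (38.2% higher), higher in 32 and lower in 39 at an adjusted p of up to 0.01, and higher in 46 (40.7%) where both inclusion introns moved against the skipping intron, a limit chosen after seeing the data. Exons of up to 51 nt numbered 37, and 7 microexons passed 10 points. Junctions within 5000 nt of a changed site were found in 20 clusters, against 8 within 1000 nt. In 26 other comparisons counts stayed within 1.5 times and shares close. They cover 9 settings, among them the annotation column, 1 cluster per gene, the skipping intron alone, added triples of larger clusters, exons up to 500 nt and symbols as given. They also include the share of higher inclusion at an adjusted p of up to 0.01 (45.1%), the share of multiples of 3 at 10 points (75%), and, where both inclusion introns moved against skipping, 67 lower and 75.2% multiples of 3. No paired analysis was possible because the tables pool the replicates, and leaving out a replicate was not run for the same reason. The unknown depth limits every value.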

Other observations

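Further annotated-only changes are given here for single genes. Of these, only AMPH is on a list, as a synaptic vesicle gene counted above. CADPS, which primes dense-core vesicles, had a cassette whose skipping intron gained 8.7 points and a donor choice of 0.9 points in the authors' deposited table. OS9, a lectin of endoplasmic reticulum quality control, lost a 165-nt exon with a skipping change of 17.6 points (adjusted p = 1.4e-05). SYNRG, an adaptor-binding protein, had a skipping change of 9.9 points for a 36-nt exon. AMPH, which bends membranes in endocytosis, had a skipping change of -7.4 points for a 126-nt exon. Its upstream and downstream inclusion introns moved in opposite directions, by -1.6 and 9 points, so the direction of the exon is less clear.

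ACLY, which makes acetyl-CoA in the cytosol, lost a 30-nt exon (10.8 points, adjusted p = 5.59e-05 in the authors' deposited table). SHMT2, a mitochondrial serine hydroxymethyltransferase, lost an 80-nt exon (16.3 points). LPIN1, a phosphatidate phosphatase, gained a 108-nt exon, with a skipping change of -15.4 points (adjusted p = 0.0461). These genes were chosen after their values were seen.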
